A study of Mus musculus with 2 samples.

Results

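Type I interferon-stimulated genes are the genes that cells switch on when interferon alpha or beta binds the interferon receptor. A named set of 40 such genes was followed, matched by symbol in the deposited gene lists. Of these, 38 were among the 32285 genes listed in each library, and Mx1 and Mx2 are not analysed here. The 38 were measured in immune cells of B16.SIY melanomas, tumours of a mouse melanoma line engineered with a model T cell antigen. The line had received a lentivirus with a control shRNA or with an shRNA against Decr2, a peroxisomal reductase of unsaturated fatty acids, and puromycin at 1.5 µg/mL for 3 days. Both kinds of tumour cell were placed under the skin of B6 mice, and live CD45+ cells were sorted from the tumours at day 14. Each group was 1 single-cell library, so no difference between the groups has a replicate check and none carries a p-value. The number of mice behind a library, and their age and sex, are not stated in the sources used here. The shRNA was carried by the tumour cells only, and the sort was for other cells, so the immune cells described were not themselves knocked down.

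Interferon alpha and beta signal through a shared receptor, Ifnar1 with Ifnar2, and the kinases Jak1 and Tyk2. These activate transcription factors, Stat2 with Irf9 among them, which enter the nucleus and bind a short DNA element, the interferon-stimulated response element, in front of their target genes. The targets include sensors of foreign RNA and DNA, proteins that block viral replication, transcription factors that feed the response, and brakes such as Usp18. In tumours, interferon beta made by myeloid cells is known for its part in priming T cells through dendritic cells.

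The control library kept 8950 of 11335 barcodes with a median of 2877.5 unique molecular identifiers (UMIs, counts of single RNA molecules), and the knockdown library kept 6897 of 9542 with a median of 4443. Cells of the knockdown library were therefore deeper, and 34 barcodes occurred in both libraries. Decr2 stood at 5.21 UMIs per 1000000 UMIs of the cells summed (CPM) with an interval of 4.52 to 5.97 in the control cells and at 4.37 CPM (3.79 to 5.02) in the knockdown cells. This is no check of the labels, because the sorted immune cells did not carry the shRNA. Cells were put into 12 classes by marker genes, none of them one of the 38, and a class is written as "like" its markers. The largest were NK-like cells (2795 control and 2279 knockdown cells) and CD8 T-like cells (1617 and 1254), with 616 and 440 monocyte-like and 250 and 287 macrophage-like cells. Cells that met no class or more than 1 made up 22.2% and 19.3%. Levels are the UMIs of a gene, or of all 38 genes, given as CPM, scaled to the UMIs of the class in that library. Intervals in brackets are exact 95% intervals that cover counting error only, not differences between animals. Those of levels and ratios treat UMIs as independent, so they also leave out the spread between cells. A UMI count per gene at the 3′ end needs no correction for gene length.

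The 38 genes lay on 14 chromosomes, and several were neighbours. The tetratricopeptide genes Ifit2, Ifit3, Ifit1bl1, Ifit3b and Ifit1 formed 1 row on chromosome 19, with gaps of 7.11, 4.16, 6.01 and 27.5 kb. On chromosome 5, Oas2 was 3.25 kb from Oas3, and Oasl2 was 11.0 kb from Oasl1. Rsad2 and Cmpk2, an antiviral pair, were 12.8 kb apart on chromosome 12, and Phf11b and Phf11d were 6.06 kb apart on chromosome 14. Genes of 1 family (Ifit3 and Ifit3b, Phf11b, Phf11c and Phf11d, Ifit1 and Ifit1bl1, the Oas genes) differ in how alike they are. Close copies can share reads, so how UMIs were split between such copies is uncertain.

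The pathway acts through a promoter sequence, so the promoters were searched for it and a few are shown. RefSeq gave windows of 300 bases, from 250 before to 50 after the start, for 31 of the 38 genes. The core of the response element was searched as GAAA, any 2 bases and GAAA, on both strands, where the other strand reads TTTC, any 2 bases and TTTC, and overlapping matches were counted separately. It was found in 17 of the 31 genes (54.8%) against 1079 of 27025 genes with a window (3.99%). Before the start alone it was found in 14 (45.2%) against 936 (3.46%). The 150 bases before the start follow for the ubiquitin-like modifier Isg15, the tethering protein Bst2, the RNA-binding protein Ifit1, the radical enzyme Rsad2 and the synthetase Oas3, each with its matches in capitals, and for Xaf1, an apoptosis-linked gene with no match in its window. They were read 5′ to 3′ on the gene's own strand from RefSeq on GRCm38.p6.
Isg15: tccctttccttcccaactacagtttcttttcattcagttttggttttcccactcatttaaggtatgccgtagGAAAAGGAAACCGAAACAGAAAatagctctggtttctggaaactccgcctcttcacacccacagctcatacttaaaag
Bst2: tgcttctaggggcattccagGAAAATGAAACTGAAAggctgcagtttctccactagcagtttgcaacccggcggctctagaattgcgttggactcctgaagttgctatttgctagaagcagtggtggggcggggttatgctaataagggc
Ifit1: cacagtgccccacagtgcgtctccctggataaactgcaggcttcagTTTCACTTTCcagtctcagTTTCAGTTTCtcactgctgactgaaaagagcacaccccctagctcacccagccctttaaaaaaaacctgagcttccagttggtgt
Rsad2: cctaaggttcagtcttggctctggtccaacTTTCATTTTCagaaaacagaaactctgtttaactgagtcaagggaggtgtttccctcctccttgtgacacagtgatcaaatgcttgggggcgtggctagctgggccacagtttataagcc
Oas3: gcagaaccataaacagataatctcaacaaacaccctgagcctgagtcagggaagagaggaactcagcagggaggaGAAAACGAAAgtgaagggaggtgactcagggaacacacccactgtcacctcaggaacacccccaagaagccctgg
Xaf1: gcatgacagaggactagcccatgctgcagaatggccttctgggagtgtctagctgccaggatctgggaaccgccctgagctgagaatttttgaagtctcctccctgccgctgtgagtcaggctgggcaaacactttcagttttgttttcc
The Isg15 stretch lies at chr4:156200819-156200968 on the minus strand and held 3 overlapping matches, which ended 56 to 68 bases short of the start; distances are counted from the end of the match nearer to the start. The Bst2 stretch, at chr8:71537473-71537622 on the minus strand, held 2 overlapping matches at 120 and 114 bases. The Ifit1 stretch, at chr19:34640739-34640888 on the plus strand, held 2 separate matches at 94 and 75 bases, both written on the other strand. Rsad2, at chr12:26456453-26456602 on the minus strand, had 1 match at 110 bases, and Oas3, at chr5:120777660-120777809 on the minus strand, had 1 at 65 bases. The Xaf1 stretch lies at chr11:72301479-72301628 on the plus strand. A match describes letters only, and the absence of one says nothing about binding.

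The summed level of the 38 genes was highest in monocyte-like cells of the control library and in macrophage-like cells of the knockdown library, and lowest in NK-like cells of both. Monocyte-like cells held 8391 CPM (8286 to 8497) in the control and 8885 CPM (8779 to 8991) in the knockdown library, or 7.23 and 6.93 times the NK-like level. Macrophage-like cells held 7373 CPM (7229 to 7519) and 8968 CPM (8839 to 9098). The 2 myeloid classes were thus at the top in both libraries. Plasmacytoid dendritic-like cells followed, with 6521 CPM (6271 to 6779) and 6250 CPM (6019 to 6488) in only 94 and 64 cells. Conventional dendritic-like cells held 4194 and 4827 CPM, CD4 T-like cells 4635 and 4039 CPM, and regulatory T-like cells 4024 and 4164 CPM. At the other end lay CD8 T-like cells (1362 and 1462 CPM) and NK-like cells (1161 and 1282 CPM).

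**Figure D1:**
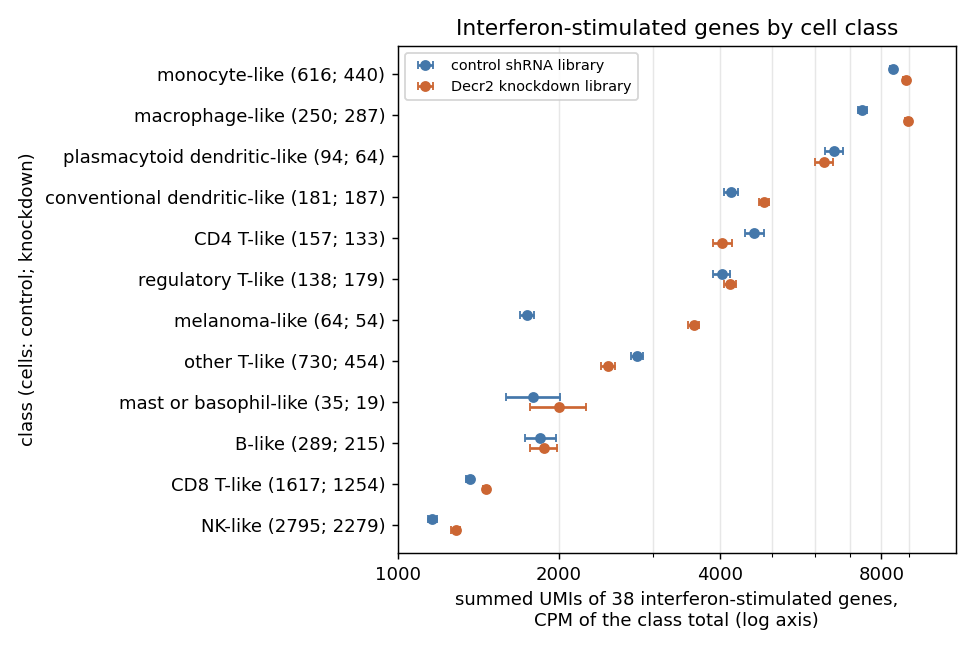
Summed UMIs of 38 interferon-stimulated genes in CPM of the class total (log axis) for 12 cell classes, with 1 point per library (blue control shRNA, orange Decr2 knockdown), 95% counting intervals as bars and cell numbers in brackets. Monocyte-like and macrophage-like cells sit between 7373 and 8968 CPM, and NK-like cells lie lowest at 1161 and 1282 CPM.

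A few genes carried much of this sum. Ifi27l2a, the gene of a small interferon-induced protein, stood at 736 CPM over the kept control cells and at 745 CPM over the kept knockdown cells. Bst2, which tethers budding virus to the cell, stood at 287 and 332 CPM, and Isg15 at 232 and 257 CPM. Together these 3 genes held 47.4% and 46.5% of the summed UMIs. Next came the nucleic acid sensor Zbp1 (155 CPM in each library), the ligase gene Trim30a (105 and 124 CPM), Parp14 (90.7 and 98.2 CPM), Slfn5 (83.9 and 101 CPM), Phf11b (84.4 and 88.2 CPM), Ifi35 (76.5 and 83.5 CPM) and the transcription factor Irf7 (76.1 and 84.8 CPM). Ifi44 and Ifit3b were lowest, at 4.47 and 4.55 CPM in control and 5.43 and 5.24 CPM in knockdown cells.

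The 3 leading genes set the rank of some classes. In regulatory T-like cells Ifi27l2a alone made up 60.5% and 57.2% of the sum, at 2434 and 2381 CPM. In plasmacytoid dendritic-like cells Bst2, which is part of their normal surface make-up, made up 65.5% and 61.9%, at 4271 and 3866 CPM. Without the 3 genes, plasmacytoid dendritic-like cells held 1336 and 1235 CPM and ranked sixth and eighth of the 12 classes. Monocyte-like cells still held 4197 and 4796 CPM, macrophage-like cells 3596 and 4557 CPM, and conventional dendritic-like cells 2215 and 2573 CPM. The lowest place then went to mast or basophil-like cells in the control and to CD8 T-like cells (741 CPM) in the knockdown library, with NK-like cells at 933 and 1032 CPM. In NK-like cells no gene dominated: Zbp1 held 9.80% and 8.46% of the sum, Trim30a 9.50% and 10.0%, and Bst2 8.65% and 8.81%.

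By role, the sensors were led by Zbp1, at 425 CPM in control and 457 CPM in knockdown monocyte-like cells. Ifih1 and Ddx58, sensors of double-stranded RNA, stood far lower in that class, at 101 and 103 CPM and at 51.6 and 58.9 CPM. Eif2ak2, the RNA-activated kinase that stops translation, was highest in macrophage-like cells (72.0 and 82.4 CPM), and the helicase gene Ddx60 in other T-like cells (19.2 and 19.0 CPM). Dhx58, a regulator of these helicases, stood at 52.0 and 48.3 CPM in monocyte-like cells. Among transcription factors and feedback genes, Irf7 led with 279 and 358 CPM in monocyte-like cells. Stat2 was highest in plasmacytoid dendritic-like cells (132 and 113 CPM). Usp18, which removes Isg15 and blocks the receptor, stood at 72.3 and 92.0 CPM in monocyte-like cells, and Irf9 at 74.7 and 74.8 CPM there and at 39.0 and 48.9 CPM in NK-like cells.

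The effector families were monocyte-like or macrophage-like in their peak for the most part. Ifit2, Ifit3 and Ifit1, which bind foreign RNA, reached 119, 113 and 70.2 CPM in control and 140, 123 and 88.4 CPM in knockdown monocyte-like cells. Of the oligoadenylate synthetase family, which senses double-stranded RNA and activates an RNase, Oasl2 was highest in macrophage-like cells (181 and 218 CPM), whereas Oas3, Oasl1, Oas1a and Oas2 were highest in monocyte-like cells. Rsad2 stood at 206 and 210 CPM in monocyte-like cells, against 8.78 and 9.67 CPM in NK-like cells. Over the 38 genes, the class with the highest level was the same in both libraries for 25, and it was the monocyte-like class for 15 of them. The exceptions had lymphoid or other peaks. Isg20, an RNA exonuclease, was highest in regulatory T-like cells (135 and 173 CPM), Samd9l in B-like cells (144 and 125 CPM), Phf11c in CD4 T-like cells (29.5 and 31.1 CPM) and Phf11b in conventional dendritic-like cells (214 and 212 CPM). Herc6, the ligase that joins Isg15 to proteins in mice, was highest in the melanoma-like cells that passed the sort (78.5 and 154 CPM in 64 and 54 cells).

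**Figure D2:**
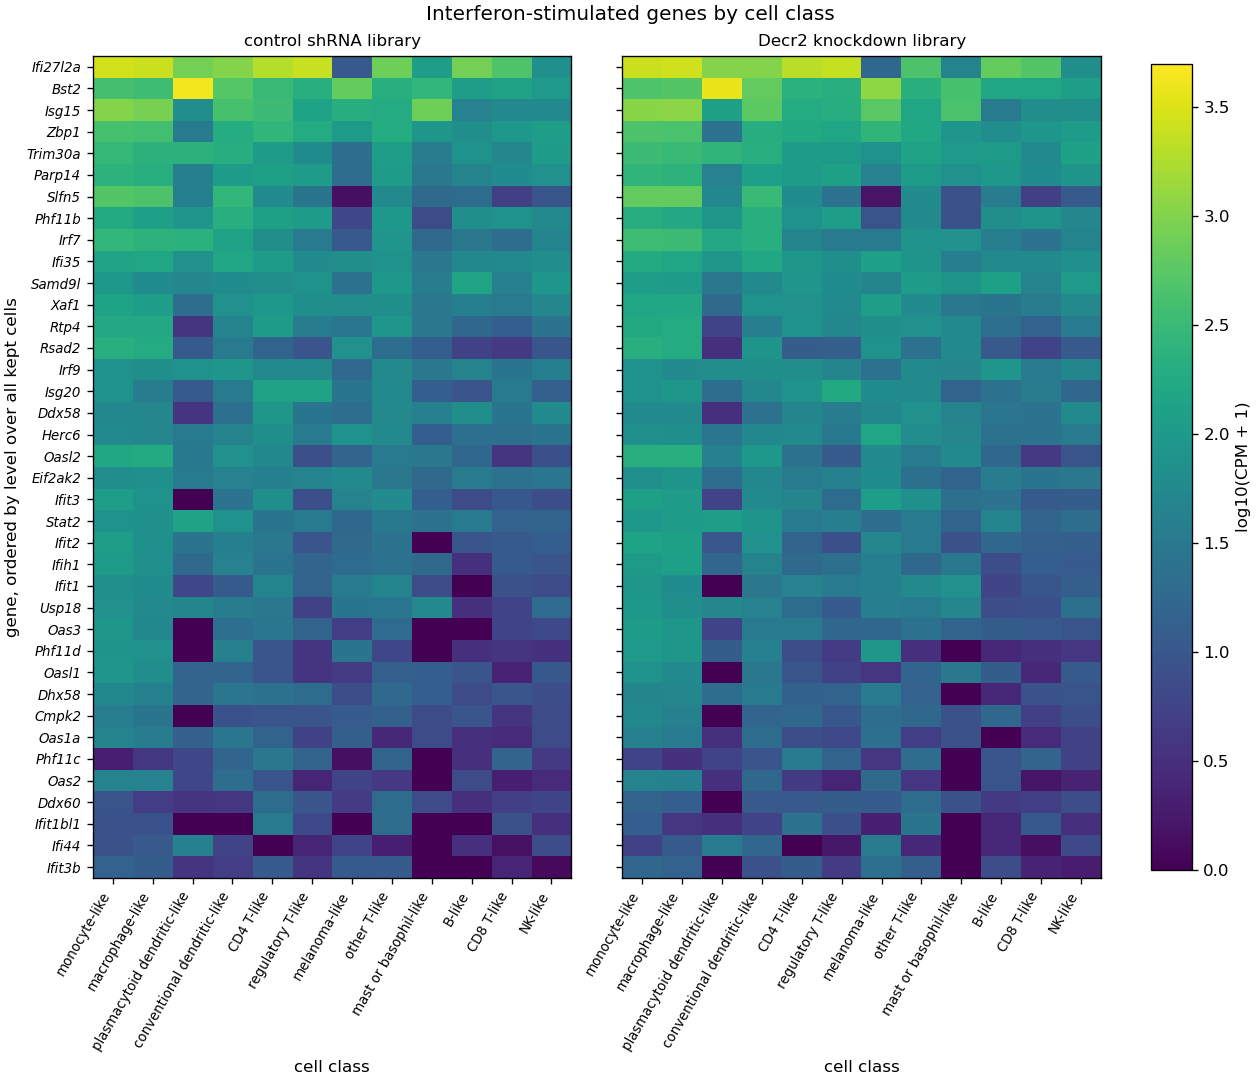
Level of each of the 38 genes (rows, ordered by level over all kept cells) in 12 cell classes (columns) for the control shRNA library (left) and the Decr2 knockdown library (right), as log10(CPM + 1). Bst2 is brightest in plasmacytoid dendritic-like cells at 4271 and 3866 CPM, and most other genes are brightest in the 2 left columns, monocyte-like and macrophage-like cells.

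The response was also scored cell by cell. Each cell was thinned to 1000 UMIs so that depth was equal, which left out 442 control and 415 knockdown cells that were shallower. A cell with at least 5 different genes of the 38 was then called high-scoring. That was the case for 45.8% of control (41.8 to 49.9; 280 of 611) and 53.2% of knockdown (48.4 to 57.9; 233 of 438) monocyte-like cells. In macrophage-like cells the share was 46.4% (116 of 250) and 56.8% (163 of 287). Many cells lay at the cut: 78 and 63 monocyte-like and 48 and 38 macrophage-like cells had exactly 5 of the genes, and 98 and 73, and 49 and 36, were 1 gene short. High-scoring cells are therefore not called a cell type. Counts this small at 1000 UMIs cannot tell a graded response from distinct states.

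Conventional dendritic-like cells followed with 24.0% and 26.7%, and CD4 T-like cells with 19.3% and 13.6%. Plasmacytoid dendritic-like cells, for all their Bst2, had 9.57% and 9.38%. NK-like cells had 2.02% and 2.84% and B-like cells 1.46% and 4.31%. The part of free RNA in such low shares was not tested. The high-scoring NK-like cells held Ifi203, an interferon-inducible gene outside the set, at 4.58 times the level of the other NK-like cells in the control and 3.34 times in the knockdown library. Without thinning the NK-like shares were 14.4% and 30.5%, and the monocyte-like shares 91.9% and 97.7%, with depths that differed between libraries and classes. High-scoring cells were 10.4% and 12.1% of all cells thinned (a difference of 1.77 points, but -0.487 points when thinned to 2000 UMIs) and held 43.3% and 46.2% of the thinned UMIs of the 38 genes. Single genes showed the same order: an Isg15 UMI was present in 44.4% of control and 48.9% of knockdown monocyte-like cells after thinning, and in 3.94% and 4.52% of NK-like cells, with Rsad2 at 9.66% and 10.3% against 0.831% and 1.06%.

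**Figure D3:**
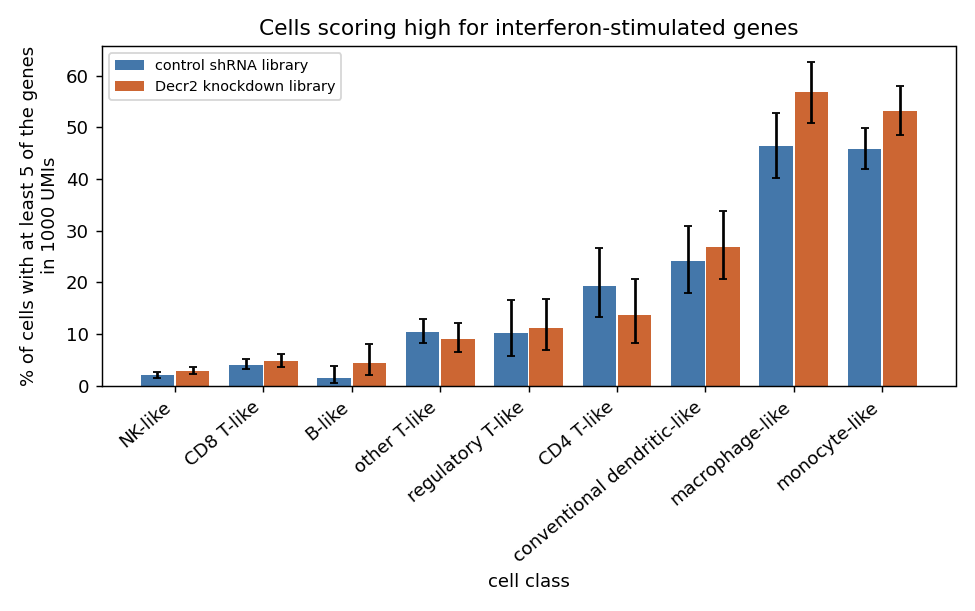
Share of cells with at least 5 of the 38 genes after thinning to 1000 UMIs, in percent, per class and library, with exact 95% binomial intervals as bars. Monocyte-like and macrophage-like cells lie between 45.8% and 56.8%, and NK-like cells at 2.02% and 2.84%.

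Genes of the set were also compared for how closely they went with the rest. For each gene, its level in cells with at least 5 of the other genes was divided by its level in the remaining cells of the same class and library. This could be done in up to 14 such sets, for 34 of the 38 genes, and not for Ifit1bl1, Ifit3b, Ifi44 and Ddx60. The gene itself was left out of the choice of cells, and the ratio is a description. A set needed at least 20 cells, 20 thinned UMIs and 3 UMIs in the remaining cells. A rare gene could therefore enter mainly where the high-scoring cells held its UMIs, which raises its ratio. The sets also differ between genes, so the medians do not rank them on equal terms. Ifit1 and Ifit3 had the highest medians, with 19.8 over 5 sets (4.74 to 84.0) and 16.3 over 7 sets (10.9 to 39.0). Ifit2 had 6.29 over 6 sets. Isg15 had a median of 8.11 over 14 sets, from 2.27 to 22.0, and Rsad2 of 7.76 over 7 sets, from 2.23 to 35.5. In control CD8 T-like cells, for example, an Ifit3 UMI was seen in 23.0% of cells high for the other genes and in 1.29% of the rest.

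At the other end stood Ifi27l2a, the most abundant of the 38, with a median of 1.71 over 13 sets (0.984 to 5.30). In control monocyte-like cells an Ifi27l2a UMI was seen in 86.2% of cells high for the others and in 78.1% of the rest, so it was nearly everywhere. Of the 28 genes with at least 4 sets, 27 had a median over 2, and Ifi27l2a was the exception. Single ratios under 1 occurred for 5 genes, namely Irf9, Samd9l, Ifi35, Trim30a and Ifi27l2a.

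**Figure D4:**
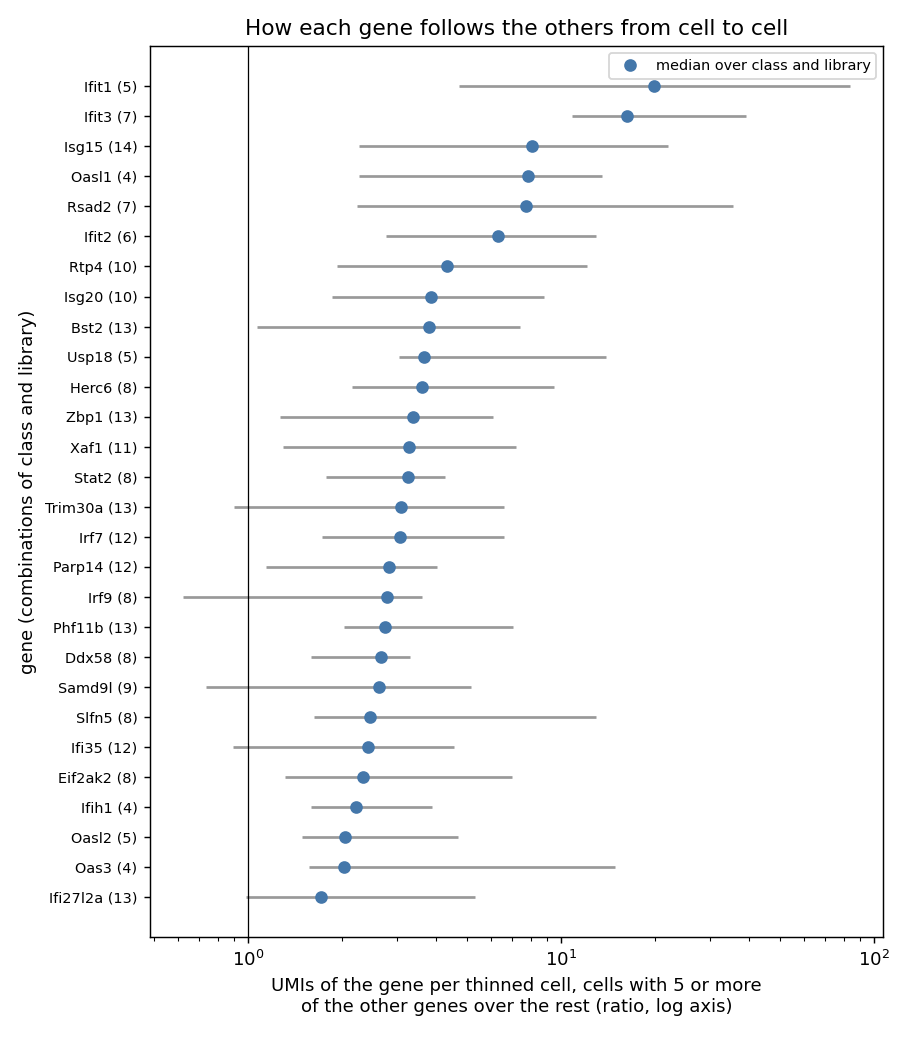
Ratio of each gene's thinned level in cells with at least 5 of the other genes to its level in the remaining cells of the same class and library (log axis), for the 28 genes with at least 4 sets; points are medians over the sets and lines run from the lowest to the highest set. Ifit1 and Ifit3 have the highest medians, 19.8 and 16.3, and Ifi27l2a the lowest, 1.71.

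Genes outside the set were also compared between high-scoring and other cells. Of 183 genes measured in all 14 sets, 6 were higher in the high-scoring cells of every one. They were Ifi203 (median ratio 2.34) and Mndal (2.25), both DNA-binding proteins of the interferon-inducible p200 family, Slfn2 (1.67), the nonclassical MHC gene H2-T23 (1.43), the cytoskeletal linker Msn (1.24) and the actin-binding Tmsb10 (1.11). The next 4 by the lowest ratio were B2m (median 1.21), Npc2 (1.28), Srgn (1.09) and Tspo (1.24). The chemokine gene Cxcl10 was higher in 11 of the 11 sets where it could be measured, with a median ratio of 3.93 and the nucleotide hydrolase gene Samhd1 in 13 of 13 (2.19). Genes that lean to interferon gamma, the lymphocyte interferon, were also higher. Cxcl9 was so in 6 of 6 sets (3.91), Igtp in 10 of 10 (2.47) and Gbp2 in 8 of 8 (2.47). The receptor genes Ifngr1 (4 of 11, 0.896) and Ifngr2 (0 of 1, 0.756) were not. Which interferon lay behind the high scores was not tested. The 8 genes of the dissociation stress list had medians from 0.838 (Fos, higher in 5 of 13 sets) and 0.908 (Hspa1b, 5 of 12) up to 1.30 (Egr1, 5 of 9) and 1.45 (Atf3, 6 of 8).

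The knockdown library had a higher summed level than the control in 5 of the 9 classes with at least 100 cells in each library, and a lower one in 2, by the counting interval of the ratio. Over all kept cells the sum was 2647 CPM in the control and 2867 CPM in the knockdown library, with a ratio of 1.08 (1.07 to 1.09). Cells with no class, which are not among the 9, held 3047 and 2924 CPM, a ratio of 0.960 (0.941 to 0.979). Of these 9 classes macrophage-like cells had the largest ratio, at 1.22 (1.187 to 1.246). Conventional dendritic-like cells had 1.15 (1.11 to 1.19), NK-like cells 1.10 (1.07 to 1.14), CD8 T-like cells 1.07 (1.05 to 1.09) and monocyte-like cells 1.06 (1.04 to 1.08). CD4 T-like cells had 0.871 (0.822 to 0.923) and other T-like cells, which showed neither Cd4, Cd40lg, Foxp3 nor CD8 by the gate, 0.883 (0.848 to 0.919). The intervals of regulatory T-like cells (1.03, 0.990 to 1.08) and B-like cells (1.02, 0.930 to 1.11) included 1. Melanoma-like cells, too few to be compared, held 1742 CPM in the control and 3566 CPM in the knockdown library (ratio 2.05, 1.97 to 2.13). Their median depth was 38425 UMIs in 64 control and 4667 UMIs in 54 knockdown cells, and the part of this gap was not tested. With equal weight per cell the CD8 T-like ratio was 0.994 and the regulatory T-like ratio 0.856, each outside its counting interval. The spread between animals was not measured, so none of these ratios could be set against it.

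For single genes, those with at least 50 UMIs over both libraries in a class were measured, and a gene was counted where its CPM + 10 was more than 25% above that of the other library. Shares of all genes were counted at this setting only. Counts given below for other settings therefore have no such share beside them. A different UMI minimum also changes how many genes are measured. Over all kept cells 0 of the 38 passed this, with 0.45% of all genes higher and 0.656% lower. A ratio over 1 was found for 34 of the 38, against 44.5% of all measured genes. The mix of classes differed too, with macrophage-like cells at 2.79% of control and 4.16% of knockdown cells. Its part in the values over all kept cells was not tested.

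In macrophage-like cells 16 of 33 measured genes were higher in the knockdown library past this line and 0 lower, where 8.97% of all genes were higher and 11.1% lower. The median log2 ratio was 0.26 for these 33 genes and -0.03 for all genes. With each cell given to the class of its highest marker level 10 genes were higher, and with the line at a ratio of 1.5 there were 5. Isg20 stood at 36.4 CPM in the control and 90.6 CPM in the knockdown library, with a ratio of 2.49 (1.81 to 3.49). The antiviral factor gene Samd9l stood at 62.3 and 111 CPM (ratio 1.79), Ifit2 at 72.0 and 126 CPM (1.74) and the sensor gene Ifih1 at 72.0 and 121 CPM (1.68). Abundant genes were higher too. Isg15 stood at 858 and 1155 CPM (1.35), Bst2 at 356 and 512 CPM (1.44), Slfn5 at 469 and 635 CPM (1.35) and Irf7 at 246 and 346 CPM (1.41). Other genes had ratios under 1: Ifit1 stood at 62.3 and 62.0 CPM, Rsad2 at 189 and 188 CPM, Oasl1 at 63.8 and 58.6 CPM and Irf9 at 67.5 and 59.1 CPM. By role, the summed ratio was 1.38 for the other antiviral effectors, 1.35 for the Ifit genes and 1.34 for Isg15 with the ligase genes Herc6 and Trim30a. The ratio was 1.32 for transcription factors and feedback genes, 1.22 for the sensors and 1.18 for the oligoadenylate synthetase family. It was lowest, at 1.10 (1.06 to 1.14), for the other induced genes, which held 46.4% and 42.0% of the summed UMIs.

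The make-up of the macrophage-like class also differed between the libraries. Its 8 macrophage markers (C1qa, C1qb, C1qc, Apoe and others), all detected in both, summed to 2285 CPM in the control and 1682 CPM in the knockdown library. Its 7 monocyte markers, all detected too, summed to 2892 and 3168 CPM. In monocyte-like cells the same 7 summed to 2809 and 2824 CPM. The monocyte markers therefore did not set the 2 classes apart, and macrophage-like cells may be monocytes that also hold macrophage markers. The heat shock gene Hspa1a, a sign of stress in handling, stood at 2197 and 1366 CPM in macrophage-like cells. The part of these differences in the interferon-stimulated genes was not tested.

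Monocyte-like cells had the highest level in the control library. Of 36 measured genes, 4 were higher past this line and 0 lower, where 5.79% of all genes were higher and 5.49% lower, and the median log2 ratio was 0.16. The count was 10 higher and 1 lower with the stricter gate, 8 higher with each cell in its nearest class or with a pseudocount of 1 CPM, 7 with doublets kept, and 0 with a pseudocount of 50 CPM or the line at a ratio of 1.5. Irf7, at 279 and 358 CPM, had a ratio of 1.28 (1.17 to 1.40), and Oasl2, at 165 and 210 CPM, one of 1.27. The Schlafen family gene Slfn5 stood at 512 and 635 CPM (1.24) and Bst2 at 402 and 481 CPM (1.20). Ifi27l2a, the largest single item, went the other way, with 2748 CPM in the control and 2503 CPM in the knockdown library, with a ratio of 0.911 (0.882 to 0.940). Oasl1 (0.873), Dhx58 (0.930) and Oas1a (0.925) were also lower, with intervals that included 1. The 8 macrophage markers summed to 255 and 440 CPM in this class and Hspa1a stood at 2284 and 1313 CPM, and their part was not tested.

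In conventional dendritic-like cells 10 of 31 measured genes were higher past this line and 1 lower, against 13.5% and 11.9% of all genes, and the median log2 ratio was 0.16. The count was 6 higher with a pseudocount of 50 CPM, 5 with the line at a ratio of 1.5 and 3 with at least 200 UMIs. The Ifit family summed to 76.9 CPM in the control and 171 CPM in the knockdown library, with a ratio of 2.23 (1.73 to 2.89). Ifit1 stood at 10.3 and 28.8 CPM (2.79), Ifit3 at 24.4 and 58.2 CPM (2.38), Ifit2 at 38.5 and 72.5 CPM (1.89) and Rsad2 at 32.8 and 80.4 CPM (2.45, 1.67 to 3.67). Other genes had ratios near or under 1, with Ifi27l2a at 1035 and 1032 CPM and Phf11b at 214 and 212 CPM, Irf9 at 86.3 and 69.3 CPM and Oas1a at 27.2 and 19.6 CPM. The class held more of the mature dendritic markers in the knockdown library, where all 7 of them summed to 1297 CPM against 566 CPM in the control. Its 6 type 1 markers summed to 971 CPM in the control and 778 CPM in the knockdown library. The part of this shift in the ratios was not tested.

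CD8 T-like and NK-like cells had a higher sum in the knockdown library from low levels. In CD8 T-like cells 1 of 34 measured genes was past this line, against 1.05% of all genes higher and 0.782% lower. With a pseudocount of 1 CPM 5 were higher and 0 lower, and with the line at a ratio of 1.5 none was. The gene was Oas3, at 4.60 CPM in the control and 9.94 CPM in the knockdown library, with a ratio of 2.16 (1.60 to 2.96). Irf9 stood at 26.6 and 32.9 CPM (1.24), Isg15 at 56.1 and 66.4 CPM (1.18) and Usp18 at 4.67 and 6.87 CPM (1.47), while Zbp1 stood at 93.1 and 85.4 CPM (0.918). Ddx58 (0.941), Dhx58 (0.888) and Phf11d (0.848) had intervals that included 1. The 7 monocyte markers, all detected, summed to 50.5 CPM in control and 85.6 CPM in knockdown CD8 T-like cells, and 6 detected of 7 mature dendritic markers to 18.2 and 42.2 CPM. Their part in the ratios was not tested.

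In NK-like cells 2 of 34 were higher past this line and 0 lower, against 1.26% and 0.629% of all genes. The count was 7 higher and 1 lower with a pseudocount of 1 CPM, 1 higher without the cell with most UMIs of the set, and 0 with the line at a ratio of 1.5. Ifit1 stood at 6.24 and 12.3 CPM (1.97, 1.40 to 2.81), Ifit3 at 6.62 and 11.5 CPM (1.73), Isg15 at 55.6 and 69.0 CPM (1.24) and Irf9 at 39.0 and 48.9 CPM (1.08 to 1.45). Zbp1 (0.953), Ifi27l2a (0.956), Phf11b (0.947) and Oas1a (0.720) had ratios under 1, with intervals that included 1. The median log2 ratio was 0.12 in NK-like and 0.08 in CD8 T-like cells, against 0.01 and -0.01 for all genes. The 5 red cell markers, all detected, summed to 89.997 CPM in control and 5.676 CPM in knockdown NK-like cells, and their part was not tested.

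In CD4 T-like cells 9 of 18 measured genes were lower in the knockdown library past this line and 0 higher, where 14.4% of all genes were lower and 13.7% higher. The median log2 ratio was -0.34. The count was 14 with at least 20 UMIs, 3 with at least 200 and 5 with the line at a ratio of 1.5. The 2 other UMI minimums do not measure the same 18 genes, so these counts cannot be compared directly. Isg15 stood at 346 and 187 CPM (0.539, 0.421 to 0.689), Isg20 at 135 and 75.3 CPM (0.558), Zbp1 at 270 and 175 CPM (0.648) and Bst2 at 325 and 227 CPM (0.700). Ifi27l2a, which made up much of the sum, stood at 1962 and 2078 CPM (1.06), and Samd9l at 65.4 and 83.5 CPM (1.28, 0.801 to 2.06). The class was small, with 157 and 133 cells. It also differed in other markers: gamma delta T genes, with 3 and 4 of 5 detected, summed to 194 CPM in the control and 80.2 CPM in the knockdown library, and myeloid genes, with 7 and 6 of 7 detected, to 304 and 224 CPM. The part of these cells was not tested. The share of high-scoring cells was 5.70 points lower, with an interval from -14.2 to 3.13 points.

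In other T-like cells the lower sum came from few genes. Ifi27l2a stood at 767 and 456 CPM (0.595, 0.545 to 0.648), Phf11b at 91.3 and 58.2 CPM (0.638), Isg15 at 185 and 156 CPM (0.840) and Zbp1 at 193 and 165 CPM (0.853). Of 33 measured genes 1, the sensor gene Ddx58 at 54.0 and 72.2 CPM (1.34), was higher past this line and 3 were lower, against 9.03% and 6.75% of all genes. With a pseudocount of 1 CPM 5 were higher and 5 lower. The median log2 ratio was 0.04, on the other side of the sum. The sum without Ifi27l2a, Bst2 and Isg15 was 1628 CPM in the control and 1639 CPM in the knockdown library. The median cell held 1662 and 1665 CPM of all 38 genes.

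The remaining lymphoid classes had few measured genes. In regulatory T-like cells 5 of 20 were higher and 0 lower, against 12% and 11.7% of all genes. Without the cell with most UMIs of the set 2 were higher and 2 lower, and with equal weight per cell 3 were higher and 4 lower. Trim30a stood there at 62.2 and 104 CPM (1.67), Isg15 at 138 and 203 CPM (1.47), Ifit1 at 13.8 and 31.0 CPM (2.24) and Zbp1 at 188 and 152 CPM (0.809). In B-like cells 4 of 9 were higher and 1 lower, against 14.9% and 12.4%. Parp14 stood at 44.3 and 94.0 CPM (2.12), Irf9 at 44.3 and 87.6 CPM (1.98) and Ifi27l2a at 844 and 662 CPM (0.783). The count was 2 higher with doublets kept or with the line at a ratio of 1.5, and 0 with at least 200 UMIs. Macrophage markers summed to 310 CPM in control B-like cells, with 6 of 8 detected, and to 736 CPM in knockdown B-like cells, with all 8. Red cell markers summed to 612 CPM (5 of 5 detected) and 8.11 CPM (2 of 5) there. In regulatory T-like cells macrophage markers summed to 45.6 CPM (5 of 8 detected) and 135 CPM (all 8). The part of these cells in the counts was not tested.

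**Figure D5:**
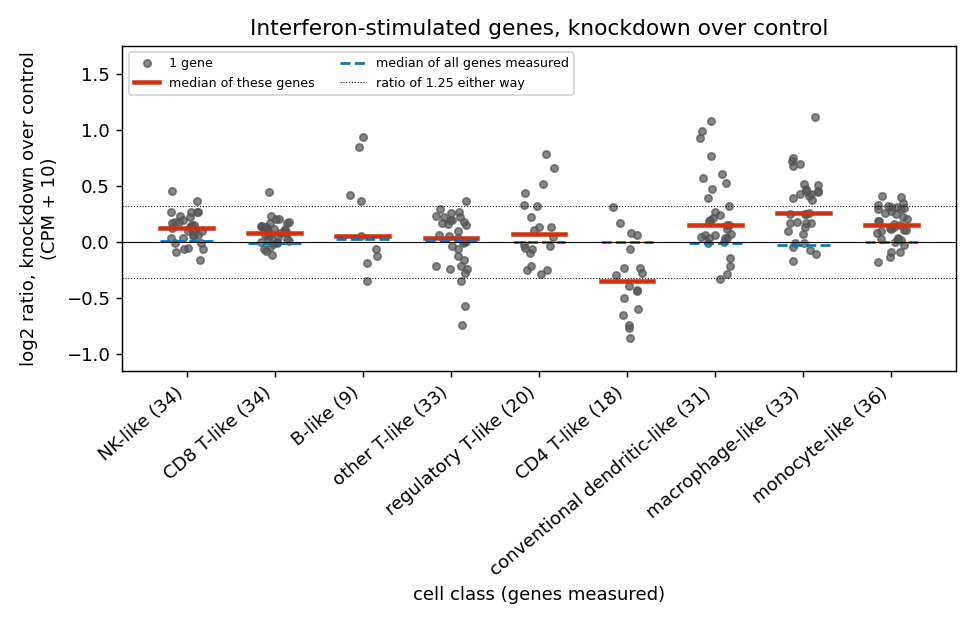
Log2 ratio of knockdown over control, on the CPM + 10 scale, for each measured gene of the 38 (grey points) in 9 classes, with their median (red), the median of all measured genes (blue dashes) and the 25% line either way (dotted). The red median is highest in macrophage-like cells (0.26) and lowest in CD4 T-like cells (-0.34).

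Across the 9 classes single genes kept their side to different degrees. Usp18 had ratios from 1.18 to 1.47 in the 6 classes where it was measured, Oas3 from 1.16 to 2.16 in 6, and Ifit2 from 1.04 to 1.89 in 6. Oas1a lay under 1 in all 5 classes where it was measured, from 0.720 to 0.975, although no interval excluded 1. Ifi27l2a spanned 0.595 to 1.07 over 9 classes. The classes share a library, so these are not repeats of one another.

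The share of high-scoring cells was 10.4 points higher in knockdown macrophage-like cells (1.92 to 18.7) and 7.37 points higher in knockdown monocyte-like cells (1.24 to 13.4). Without thinning the macrophage-like difference was 1.51 points. The shares were then 96.4% and 97.9%, at unequal depth and so near the ceiling that a large difference could not show. With at least 10 UMIs of the set in place of 5 genes the monocyte-like difference was 1.06 points. The intervals of the other 7 classes included 0, as with CD8 T-like cells at 4.03% and 4.71% and other T-like cells at 10.4% and 9.05%.

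The rest of the pathway was followed in the myeloid classes. Of the ligands, receptors and transducers, 3 of 10 measured genes were higher in knockdown macrophage-like cells and 1 lower, where 8.97% of all genes were higher and 11.1% lower. The lower count is thus near the share of all genes. The transcription factor Irf1 stood at 445 and 656 CPM (1.47) and Irf8 at 262 and 368 CPM (1.41). Of the receptor genes, Ifnar1 stood at 61.6 and 62.5 CPM in macrophage-like cells and at 58.2 and 53.6 CPM in monocyte-like cells. Ifnar2 was higher in knockdown macrophage-like cells, at 193 and 231 CPM, and stood at 202 and 201 CPM in monocyte-like cells. Of the upstream sensing genes 2 of 9 were higher and 0 lower in macrophage-like cells. Ifi204, a DNA sensor, stood there at 580 and 689 CPM (1.19), and the adaptor Myd88 at 138 and 120 CPM, and the adaptor Tmem173 (STING) stood at 119 and 120 CPM in monocyte-like cells. Of the negative regulators 1 of 6 was higher, a count too small to set apart from the 8.97% of all genes. It was Socs1, an inhibitor of Jak kinases, at 63.1 and 99.4 CPM (1.58). Samhd1 stood at 1021 and 1254 CPM and Socs3 at 728 and 611 CPM.

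Genes that lean to interferon gamma, the lymphocyte interferon, were counted in the same way. In macrophage-like cells 7 of 18 were higher and 0 lower, with a median log2 ratio of 0.26, in monocyte-like cells 5 of 18 and 0 (0.23), and in conventional dendritic-like cells 9 of 17 and 1 (0.35). The shares of all genes higher and lower were 8.97% and 11.1%, 5.79% and 5.49%, and 13.5% and 11.9% in these classes. The chemokine gene Cxcl9, a classical target of interferon gamma, stood at 294 and 639 CPM in macrophage-like cells (2.17, 1.94 to 2.44), at 390 and 599 CPM in monocyte-like cells (1.54) and at 320 and 484 CPM in conventional dendritic-like cells (1.51). Its relative Cxcl10, which answers to both kinds of interferon, stood at 2492 and 2582 CPM in macrophage-like cells, 2877 and 2473 CPM in monocyte-like cells and 776 and 592 CPM in conventional dendritic-like cells. Ifng itself stood at 232 and 182 CPM in CD8 T-like cells, a ratio of 0.785 (0.746 to 0.826). The dissociation stress list was lower in the knockdown library in several classes, with 0 higher and 6 lower of 8 in conventional dendritic-like cells, 0 and 5 of 8 in CD8 T-like cells and 1 and 5 of 7 in CD4 T-like cells, where 11.9%, 0.782% and 14.4% of all genes were lower. Its part in the ratios above was not tested.

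The ligand genes were rare and most of their UMIs lay in monocyte-like and macrophage-like cells and in cells with no class. Ifnb1, interferon beta, had 233 UMIs in 88 control cells (0.983%) and 110 UMIs in 48 knockdown cells (0.696%), or 5.92 CPM (5.18 to 6.73) and 2.38 CPM (1.96 to 2.87). In monocyte-like cells it had 84 UMIs in 36 cells (5.84%) and 54 UMIs in 21 cells (4.77%), at 28.9 and 17.9 CPM, a ratio of 0.618 (0.431 to 0.881). In macrophage-like cells it had 46 UMIs in 24 cells (9.60%) and 31 UMIs in 9 cells (3.14%), at 34.1 and 15.0 CPM, a ratio of 0.440 (0.270 to 0.709). Ifnb1 was therefore lower in the knockdown library in both of these classes, where the summed level of the stimulated genes was higher. A single cell held 22 of the 31 UMIs of the knockdown macrophage-like cells, and 40 of the control library's UMIs lay in 1 cell with no class. NK-like cells, which should lack the transcript, had 1 and 4 UMIs. The 14 listed Ifna genes had 59 control UMIs and 2 knockdown UMIs, of which 33 were Ifna2 UMIs in 1 control cell.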

How the data were processed

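Single-cell RNA was counted in 2 libraries, 1 per group, taken from the labels. The deposited counts are whole UMI counts per gene and barcode, which the authors produced on mm10 using Cell Ranger 6.1.2, and Seurat 4.3 is also named, all per the submitters' processing notes. The annotation release is not stated in these sources. No column of another sample was set aside.

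The 38 genes and all other lists were chosen with earlier results of these data known. Cells with at least 500 UMIs, 200 genes and at most 10% mitochondrial UMIs were kept, and the highest Scrublet scores (0.8% per 1000 barcodes; scanpy 1.11.5) were removed as doublets, 1028 and 728. Classes needed at least 3 detected markers of 1 lineage only (4 for plasmacytoid dendritic-like and mast or basophil-like, 5 for melanoma-like). CD8 T-like cells needed 2 UMIs of Cd8a or Cd8b1 without Cd4 or Foxp3, regulatory T-like cells Foxp3, and CD4 T-like cells Cd4 or Cd40lg. Macrophage-like cells needed 2 macrophage markers beyond the shared myeloid ones. These minimums were set after the marker distributions had been seen, and so were the minimums behind the ratios within a class (20 cells, 20 thinned UMIs and 3 UMIs in the remaining cells). CPM are shares of a class's RNA, so a lower value and more of other RNA cannot be told apart.

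CPM used the class total. Intervals were exact Poisson, exact conditional binomial, exact Clopper-Pearson and, for differences of shares, Newcombe intervals (Python 3.11.15, numpy 2.4.6, scipy 1.17.1, pandas 2.3.3). Only the ratio intervals and the thinning were tested on simulated data, which held counting error alone. With 1 library per group no test was run. Named were the 10 most abundant genes, the leaders of each role, in each class the 4 highest and 4 lowest by the bound of the interval that lies closest to 1, and the 10 other genes with the largest smallest ratio in high-scoring cells; further members were chosen after their values were seen. Alternatives covered filters, gates, weights, pseudocounts and thresholds, and leaving out shared barcodes was added after seeing the data. RefSeq windows came from GRCm38.p6 and gene positions from the same assembly. Values of 1 list gene are not reported here.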

Additional observations from a re-analysis of the deposited data

Results flagged for a closer look

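The summed level of the 38 genes was lower in the knockdown library in CD4 T-like cells, with a ratio of 0.871, and in other T-like cells, with a ratio of 0.883, while 5 classes had ratios whose intervals lay above 1. These 2 classes stood out because their summed level lay on the opposite side. Their median cell did not: it held 2768 CPM in control and 2950 CPM in knockdown CD4 T-like cells. In other T-like cells it held 1662 and 1665 CPM. The difference between classes was not tested, since each group was 1 library.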

How the results depend on the processing

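No paired analysis was possible because each group was 1 library and no test was run. The ratio of the summed level kept its side of 1 in macrophage-like (1.16 to 1.27 over 9 settings), conventional dendritic-like (1.09 to 1.17), NK-like (1.05 to 1.12), monocyte-like (1.05 to 1.14) and CD4 T-like cells (0.772 to 0.904).

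Some values turned. With equal weight per cell the ratio was 0.994 in CD8 T-like and 0.856 in regulatory T-like cells, and the regulatory T-like median log2 ratio was -0.021, or -0.032 without the cell with most member UMIs. Without Ifi27l2a, Bst2 and Isg15 the other T-like ratio was 1.01. Thinned to 2000 UMIs, the difference in high-scoring cells over all kept cells was -0.487 points. The cause was not tested.

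Others moved in size. At most 5% mitochondrial UMIs gave a macrophage-like ratio of 1.251 and median of 0.32. With doublets kept the ratios were 1.05 in CD8 T-like and NK-like and 1.08 in monocyte-like cells, and the macrophage-like median was 0.30. The stricter gate gave an other T-like ratio of 0.802 and a monocyte-like median of 0.21, and left too few macrophage-like and conventional dendritic-like cells for a value. With each cell in its nearest class, the ratios were 0.926 in other T-like, 1.07 in NK-like, 1.10 in monocyte-like, 1.16 in macrophage-like and 1.09 in conventional dendritic-like cells, the medians -0.25 in CD4 T-like and 0.22 in monocyte-like cells, and 10 macrophage-like genes were higher. With equal weight per cell, the macrophage-like ratio was 1.18, the conventional dendritic-like ratio 1.10 and the monocyte-like median 0.19. Without the cell with most member UMIs the medians were 0.13 in monocyte-like and 0.37 in macrophage-like cells. Without the 3 leading genes the ratios were 1.10 in regulatory T-like, 0.772 in CD4 T-like, 1.21 in B-like, 1.14 in monocyte-like and 1.27 in macrophage-like cells.

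A pseudocount of 1 CPM gave a macrophage-like median of 0.31, and one of 50 CPM gave 0.21, with -0.23 in CD4 T-like and 0.10 in monocyte-like cells. At least 20 UMIs gave 14 lower CD4 T-like genes, and at least 200 UMIs gave 3, with medians of -0.55 in CD4 T-like and 0.38 in macrophage-like cells. A ratio of 1.5 left 5 lower CD4 T-like and 5 higher macrophage-like genes. With at least 10 member UMIs the monocyte-like difference in shares was 1.06 points. Without thinning the macrophage-like one was 1.51 points, with shares of 96.4% and 97.9% that lie near the ceiling. Counting error is smallest in CD8 T-like and monocyte-like cells and largest in CD4 T-like and B-like cells.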
